A study of Mus musculus with 5 samples.

Results

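The genes described here are 38 cell cycle genes, chosen by symbol and followed across RNA precipitates of the survival of motor neuron protein (SMN). Of these, 36 had a probe set whose only gene symbol was theirs, among 19937 such genes and 28187 probe sets tested in all, and the brightest such probe set stood for each gene. Ccnb1 had none in the annotation used, and Cdkn1a had only one that it shares with 4930567H12Rik. The 36 comprised 16 genes of S phase entry and DNA replication, 17 genes of mitosis, and 3 genes that act in G1 (Ccnd1, Ccnd2 and Cdkn1b). Signal was high enough to measure: 35 of the 36 lay above the median probe set, and the exception, Gmnn, lay between 4.78 and 5.18 on the log2 scale, where the presumed control probe sets had medians of 4.30 to 4.55.

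The cells were NSC-34, a mouse line made by fusing neuroblastoma cells with motor neurons of the spinal cord. One kind of cell carried a construct for full-length SMN with a 3XFLAG tag, and the other carried no FLAG construct. Both kinds of cell were differentiated in 1% serum (3 days in one protocol, 48 hours before doxycycline in another), given 3 µg/ml doxycycline for 3 days, and crosslinked by an ultraviolet dose of 400 mJ/cm2. RNA was then recovered from anti-FLAG precipitates. The 3 arrays of tagged cells are called FLAG-SMN IP and the 2 arrays of cells without the construct control IP; 300 to 500 ng of precipitated RNA was labelled with biotin for each. The sources used here do not say whether the tagged line is 1 clone or whether replicates came from separate cultures. The p-values therefore reflect the spread of these 5 samples alone, and that spread may be technical. Input RNA from the same lysates was not used here. A lower value can therefore not be assigned to fewer cycling cells, to less of an RNA per cell or to less of it in the precipitate, which cannot be told apart.

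A proliferating cell switches these genes on in waves. E2F transcription factors, released when cyclin D and cyclin E kinases inactivate the retinoblastoma protein, turn on the genes that license and copy DNA, among them the MCM helicase, thymidylate synthase and ribonucleotide reductase. Later, the MuvB complex with B-Myb and FoxM1 turns on the mitotic kinases, cyclins and kinetochore proteins through a promoter element called the CHR. The CCAAT box is a separate promoter element that many of these genes also hold. Neuronal cell lines are commonly placed in low serum so that they leave the cycle and extend neurites, and the CDK inhibitors encoded by Cdkn1a and Cdkn1b hold cells in G1.

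On these arrays the cell cycle genes separated single precipitates rather than the FLAG-SMN IP from the control IP. Averaged over the 36 genes, the log2 value was 7.47, 8.13 and 8.31 in FLAG-SMN IP replicates 1 to 3, and 7.40 in control IP replicate 1 against 8.38 in replicate 2. The arrays of one group thus lay further apart than the groups. In 32 of the 36 genes FLAG-SMN IP replicate 1 was the lowest of its 3 arrays and control IP replicate 1 was below replicate 2; 19.3% of all probe sets, and 27.4% of those above the median signal, had that pattern. Control IP replicate 1 was at least 2-fold below replicate 2 in 20 genes and at least 2-fold above it in 0, against 1.71% and 1.27% of all probe sets; 2.8% of those above the median signal were 2-fold lower. FLAG-SMN IP replicate 1 was at least 2-fold below the mean of replicates 2 and 3 in 11 genes and above it in 0, against 3.41% and 3.19%, with 5.96% of the brighter probe sets 2-fold lower. The median within-group SD of the 36 genes was 0.60, compared with 0.24 over all probe sets and 0.30 over those above the median signal. The labels do not say that replicates with the same number were prepared together.

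**Figure D1:**
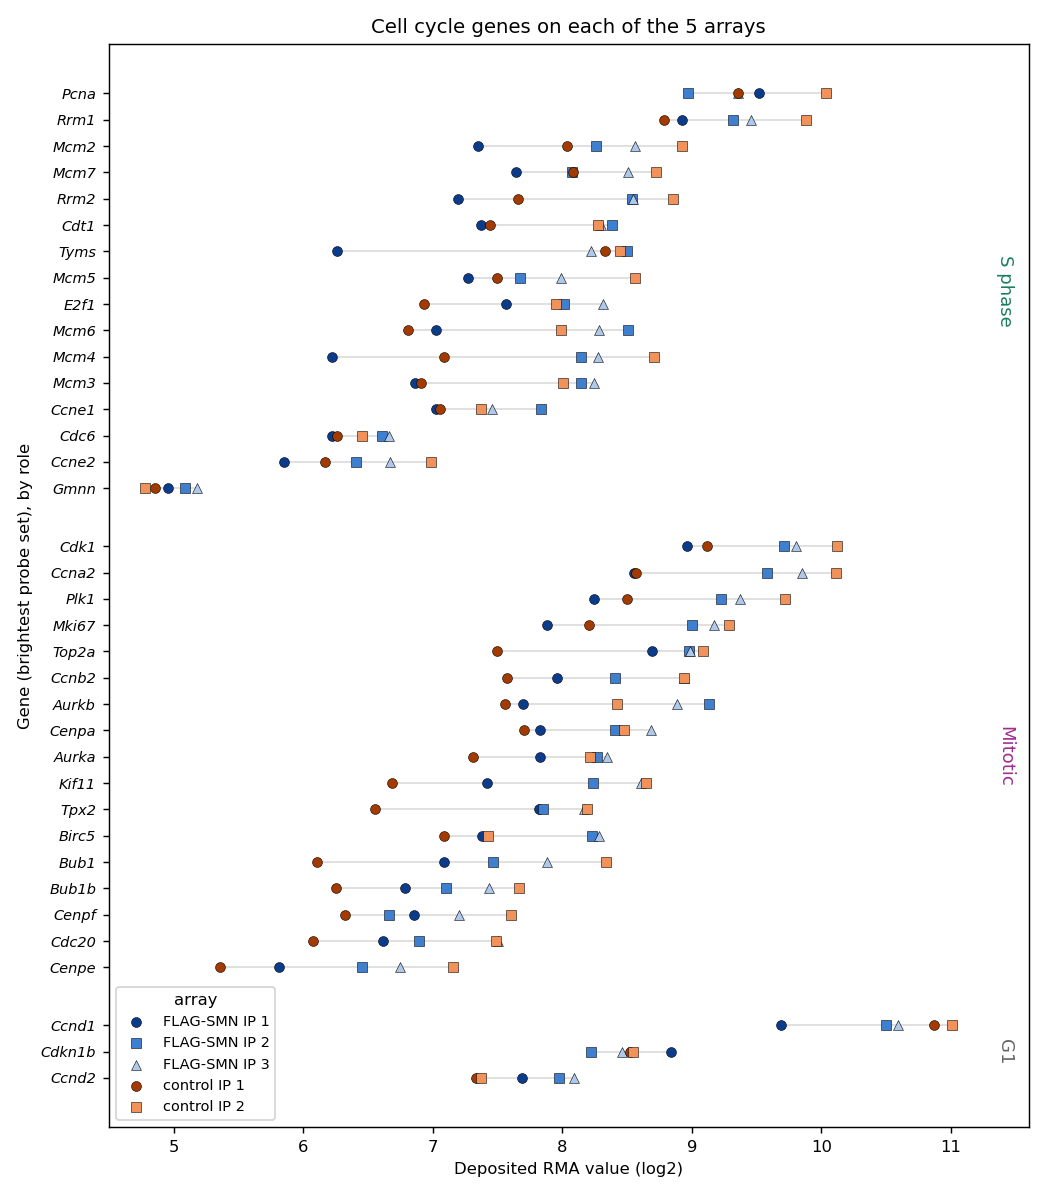
Deposited log2 value (horizontal axis) of each of the 36 cell cycle genes (vertical axis, grouped by role) on the 5 arrays, 1 symbol per array, with a grey line from the lowest to the highest. In 33 of the 36 genes the lowest value belongs to a replicate numbered 1, FLAG-SMN IP in 16 and control IP in 17. That share was 39.7% over all probe sets and 50.5% over those above the median signal.

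These values are array summaries after RMA, which pulls the arrays toward a common distribution, and the medians over all probe sets were close, from 5.25 to 5.39. Over all probe sets, the median difference was 0.068 between control IP replicates 1 and 2 and 0.025 between FLAG-SMN IP replicate 1 and the mean of replicates 2 and 3, whereas the medians over the 36 genes were -1.04 and -0.70. After cyclic loess scaling they were -0.89 and -0.68, and after centring on the brighter probe sets -0.84 and -0.67; the count with both replicates numbered 1 lowest was 31 and 28 under these scalings. FLAG-SMN IP replicate 1 also had the lowest correlations with its own group over all probe sets (Pearson r = 0.964 and 0.968, against 0.989 between replicates 2 and 3), a description across probe sets, which are not independent.

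**Figure D2:**
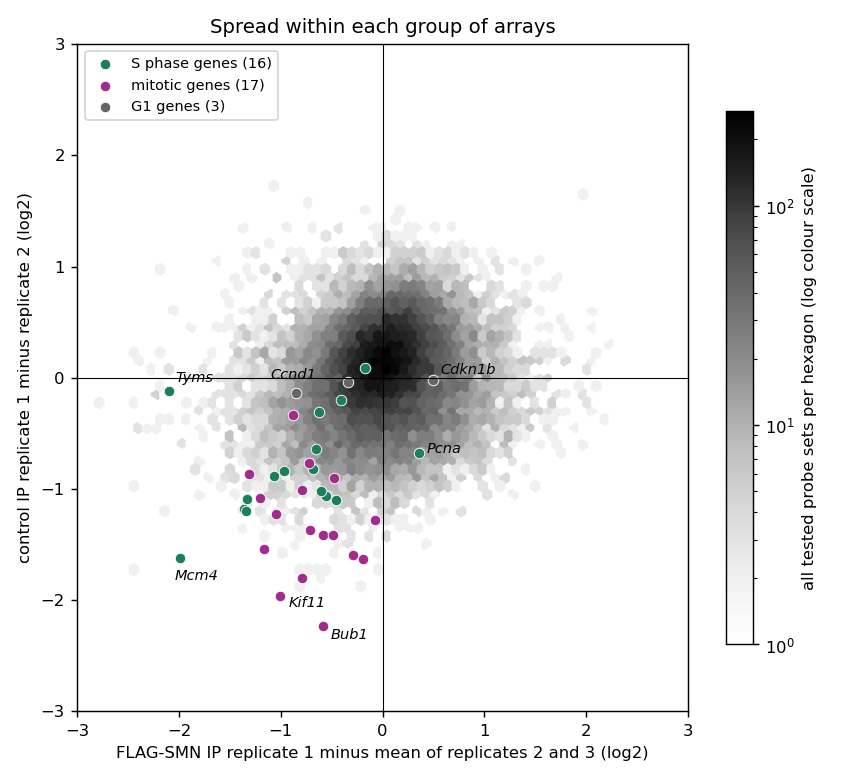
Each point is a cell cycle gene, placed by FLAG-SMN IP replicate 1 minus the mean of replicates 2 and 3 (horizontal axis, log2) and control IP replicate 1 minus replicate 2 (vertical axis, log2); grey hexagons count all tested probe sets on a log colour scale, and 52 probe sets beyond 3 log2 units are not drawn. Most S phase and mitotic genes sit in the lower left, below 0 on both axes, with medians of -0.70 and -1.04 over the 36 genes, whereas Cdkn1b, Ccnd1 and Tyms lie near 0 on the vertical axis.

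The labelled cell type was checked with marker genes. The noradrenergic neuroblastoma markers Phox2a (9.00 to 9.49 over the 5 arrays) and Hand2 (9.43 to 9.88) and the neuronal intermediate filament gene Prph (10.37 to 11.52) were well above the presumed controls. The cholinergic enzyme gene Chat (4.28 to 4.69) lay near the presumed control medians, and the motor neuron transcription factor gene Mnx1 (3.40 to 4.17) lay below them on every array. Of 15 motor neuron and neuronal markers, 10 were above the presumed control median on all arrays. The FLAG-SMN arrays had means of 6.22 (replicate 1), 5.62 and 5.70 over these 15, so this list was higher on the array where the cell cycle genes were lower; in the control IP it was 6.08 and 6.11. Tubb3, the neuronal tubulin gene, went the same way (9.09, 7.05 and 6.98 in the FLAG-SMN arrays). Of the 15, 3 were at least 2-fold higher in FLAG-SMN IP replicate 1 than in the mean of replicates 2 and 3. In 2 of the 15 that array was instead the lowest of its group, namely Mnx1 (3.81, 4.17 and 3.92) and Slc5a7, another marker of the list (3.40, 3.81 and 3.49). Dbh, the noradrenaline synthesis enzyme gene, separated the groups instead, at 4.94, 5.38 and 5.33 in FLAG-SMN IP against 6.91 and 7.98 in control IP, and so did Th, of the same pathway, at 5.44, 4.58 and 4.80 against 6.91 and 6.85. Gata3, of the same marker list, separated them in the other direction, at 7.09, 7.47 and 7.45 against 6.72 and 6.96. Astrocyte markers (means from 4.18 to 4.46) and leukocyte markers (4.33 to 4.59) were near the presumed controls on all arrays, and oligodendrocyte markers had means from 4.46 to 4.95. Of 4 fibroblast markers, 3 were above the presumed control median on all arrays, namely Col1a1 (5.61 to 6.34), Col1a2 (5.27 to 5.76) and Pdgfra (6.41 to 7.35), and the list's mean ran from 5.34 to 5.56 (5.51 in FLAG-SMN IP replicate 1, 5.34 in control IP replicate 1). The part of these markers in the result was not tested.

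Among the replication genes, the MCM helicase showed the split in all 6 subunits. Mcm4 was at 6.22, 8.14 and 8.28 in FLAG-SMN IP replicates 1 to 3 and at 7.09 and 8.71 in control IP replicates 1 and 2. Both replicates numbered 1 were therefore well below the other 3 arrays, and the groups overlapped (7.55 ± 1.15, SD, n = 3, against 7.90 ± 1.15, SD, n = 2). Mcm6 was at 7.03, 8.51 and 8.28 against 6.81 and 7.99, and Mcm3 at 6.87, 8.15 and 8.25 against 6.91 and 8.01, again with both replicates numbered 1 lowest. In Mcm2 (7.35, 8.26 and 8.56 against 8.04 and 8.92), Mcm5 (7.28, 7.67 and 7.99 against 7.49 and 8.56) and Mcm7 (7.64, 8.08 and 8.51 against 8.08 and 8.73) control IP replicate 2 was the highest of all 5, as it was in Mcm4. Over the 6 subunits the shortfall of FLAG-SMN IP replicate 1 ran from -0.56 (Mcm5) to -1.99 (Mcm4), and that of control IP replicate 1 from -0.64 (Mcm7) to -1.62 (Mcm4).

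The loading and timing factors of replication differed in the size of their steps. Cdt1, which loads the helicase, was at 7.38, 8.39 and 8.30 in FLAG-SMN IP and 7.44 and 8.28 in control IP. Cdc6, its partner in loading, varied less, at 6.23, 6.61 and 6.66 against 6.26 and 6.46. The cyclin genes Ccne1 (7.02, 7.83 and 7.46 against 7.06 and 7.37) and Ccne2 (5.85, 6.41 and 6.67 against 6.17 and 6.98), whose products activate CDK2 at S phase entry, had the same lowest arrays within each group. E2f1, the transcription factor gene of this wave, was at 7.56, 8.01 and 8.32 against 6.94 and 7.95. Gmnn, which encodes the inhibitor of Cdt1, was the 1 replication gene in which control IP replicate 1 (4.86) was not below replicate 2 (4.78), at a level little above the presumed controls.

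The nucleotide synthesis genes did not all share one pattern. Rrm2, the S phase subunit of ribonucleotide reductase, was at 7.20, 8.54 and 8.55 in FLAG-SMN IP and 7.65 and 8.85 in control IP. Rrm1, its large subunit, was at 8.93, 9.31 and 9.46 against 8.78 and 9.88, a smaller step in the FLAG-SMN arrays. Tyms, thymidylate synthase, was at 6.26, 8.50 and 8.22 against 8.33 and 8.44, so it was low in FLAG-SMN IP replicate 1 (-2.10 against the mean of replicates 2 and 3) and differed by only -0.12 between the control arrays. Pcna, the sliding clamp of DNA polymerase, was at 9.52, 8.97 and 9.36 against 9.35 and 10.03 at the probe set used, where FLAG-SMN IP replicate 1 was the highest of its group. Its other probe set gave 8.74, 9.12 and 9.49 against 9.30 and 10.18, with replicate 1 the lowest. The 2 probe sets disagree within the FLAG-SMN group, and the order of its arrays is uncertain for this gene.

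Of the 17 mitotic genes, 13 had their lowest value in control IP replicate 1 and 4 in FLAG-SMN IP replicate 1. Of all 28187 probe sets, 4366 and 6827 did. Bub1, a kinase of the spindle checkpoint, was at 7.09, 7.47 and 7.88 in FLAG-SMN IP and at 6.11 and 8.34 in control IP, a distance of -2.23 between the 2 control arrays. Kif11, the kinesin that separates spindle poles, was at 7.42, 8.24 and 8.61 against 6.68 and 8.64, and Tpx2, which activates Aurora A on the spindle, at 7.82, 7.85 and 8.16 against 6.56 and 8.19. In all 3 genes control IP replicate 1 was the lowest array and control IP replicate 2 the highest. Top2a, the topoisomerase that untangles chromosomes, was at 8.70, 8.98 and 8.98 against 7.49 and 9.08. Its dimmer probe set (3.49, 4.30 and 5.50 against 2.92 and 4.25) had the same lowest array in each group.

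Control IP replicate 1 was also the lowest array in each of the other kinetochore and checkpoint genes. Cenpe, a kinetochore motor, was at 5.81, 6.46 and 6.75 in FLAG-SMN IP and 5.36 and 7.16 in control IP; Cenpf, another kinetochore protein gene, at 6.86, 6.66 and 7.20 against 6.32 and 7.61. Cenpf was the 1 mitotic gene in which FLAG-SMN IP replicate 1 was not the lowest of its group. Bub1b, encoding the checkpoint protein BubR1, was at 6.79, 7.11 and 7.44 against 6.25 and 7.67, and Cdc20, the activator of the anaphase-promoting complex, at 6.61, 6.90 and 7.50 against 6.08 and 7.49. Cenpa, the histone variant gene of centromeres, had a smaller range, 7.83, 8.41 and 8.69 against 7.71 and 8.48.

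The cyclins and kinases that drive mitosis were low in both replicates numbered 1. Ccna2 was at 8.55, 9.58 and 9.85 in FLAG-SMN IP and at 8.57 and 10.11 in control IP, and its kinase partner Cdk1 at 8.97, 9.71 and 9.81 against 9.12 and 10.12. Plk1, the Polo kinase gene, was at 8.25, 9.22 and 9.37 against 8.50 and 9.72, and the proliferation marker Mki67 at 7.88, 9.00 and 9.17 against 8.20 and 9.29. In these genes the group means were close (differences from -0.16 for Plk1 to -0.013 for Ccna2), whereas the distance between the control arrays was -1.54 in Ccna2. Ccnb2, a B-type cyclin, was at 7.96, 8.41 and 8.94 against 7.57 and 8.94.

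Birc5 had the smallest distance between the control arrays of the 17 mitotic genes. Birc5, which encodes survivin, was at 7.38, 8.23 and 8.28 in FLAG-SMN IP and at 7.08 and 7.42 in control IP, so FLAG-SMN IP replicates 2 and 3 were above both control arrays and replicate 1 was between them. Aurkb, the kinase of the same complex, was at 7.70, 9.13 and 8.88 against 7.55 and 8.42. Aurka, the spindle pole kinase, was at 7.83, 8.26 and 8.35 against 7.31 and 8.21. The distance between the control arrays was -0.34 in Birc5, and the next smallest were in Cenpa (-0.77), Aurkb (-0.87) and Aurka (-0.90).

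The control array shortfall was thus larger in mitotic than in replication genes, whereas the order of the FLAG-SMN shortfall depended on the measure. For the 17 mitotic genes the mean was 7.61, 8.21 and 8.46 in FLAG-SMN IP and 7.20 and 8.52 in control IP; for the 16 S phase genes it was 7.08, 7.90 and 8.0 against 7.33 and 8.12. Control IP replicate 1 was 1.32 below replicate 2 over mitotic genes (difference -1.32) and 0.79 over S phase genes (-0.79). On average, FLAG-SMN IP replicate 1 was below the mean of replicates 2 and 3 by 0.72 over mitotic genes (-0.72) and by 0.87 over S phase genes (-0.87). The medians of this FLAG-SMN distance had the other order, at -0.72 over mitotic and -0.67 over S phase genes. The shortfall was larger in the control than in the FLAG-SMN arrays in 14 of 17 mitotic and 5 of 16 S phase genes. The share was 44.8% of all probe sets and 56.4% of those above the median signal. The lowest of all 5 arrays was control IP replicate 1 in 13 of 17 mitotic genes and FLAG-SMN IP replicate 1 in 11 of 16 S phase genes. Those arrays were lowest in 4366 and 6827 of all 28187 probe sets.

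The S phase mean minus the mitotic mean gives one value per array, of which only the change between arrays can be read, because probe sets differ in brightness. It was -0.53, -0.31 and -0.46 in FLAG-SMN IP and 0.12 and -0.40 in control IP. Control IP replicate 1 stood alone; control IP replicate 2 lay within the range of the FLAG-SMN arrays. The groups differed by -0.30 (-0.43 ± 0.11, SD, n = 3, against -0.14 ± 0.37, SD, n = 2), a value that was -0.032 without control IP replicate 1 and -0.56 without control IP replicate 2. It therefore rests on control IP replicate 1. No test is given for a score over chosen genes, and 3 arrays against 2 cannot give an exact permutation p below 0.1.

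**Figure D3:**
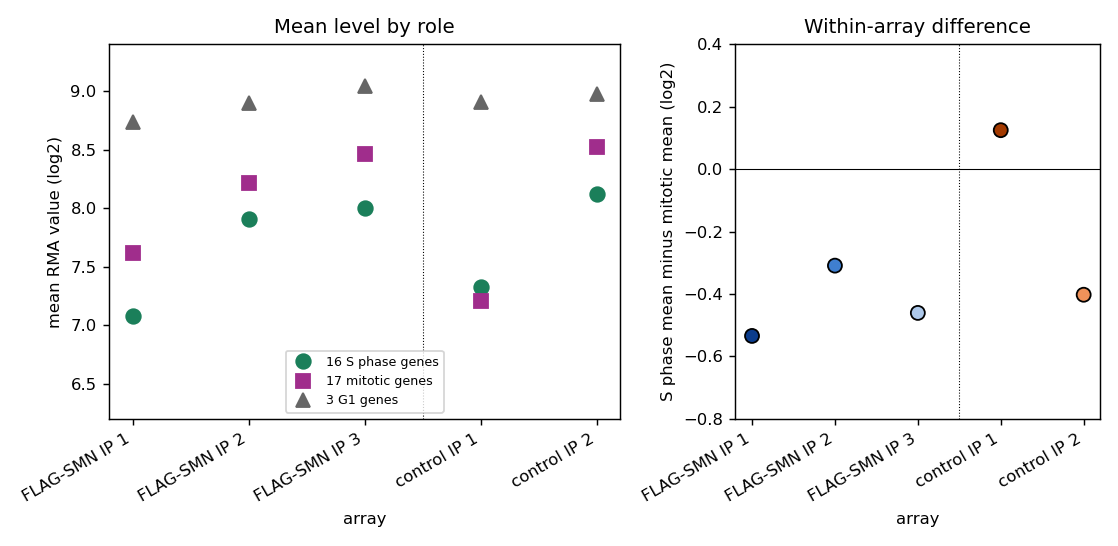
Left, mean log2 value of the S phase, mitotic and G1 genes on each array. Right, the S phase mean minus the mitotic mean on each array, which is 0.12 in control IP replicate 1 and between -0.53 and -0.31 in the other 4; the dotted line separates the groups.

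Promoter sequences are shown for members of each role as background on the elements named above, and their part in the array values was not tested. Sequences are from the RefSeq promoter table (build GRCm38.p6), which held 32 windows for 30 of the 38 genes; the 180 bases before the annotated start are given 5′ to 3′ on the gene's strand. The first 3 S phase and the first 3 mitotic genes are those with the largest summed shortfall of the replicates numbered 1 among genes with one window in the table. Ccnb2 and Cdk1 were added as mitotic genes that hold both CHR and CCAAT letters, and Cdkn1b as a G1 gene that did not follow. Capitals mark matches on either strand, and overlapping matches run together. The CHR was searched as TTTGAA and, in its variant form, as TTTAAA. The CCAAT box was searched by those letters. The E2F site was searched in 4 forms, namely TTTGGCGC, also TTTGCCGC, then TTTCGCGC, and lastly TTTCCCGC.
Rrm2 (chr12:24708074-24708253, plus strand): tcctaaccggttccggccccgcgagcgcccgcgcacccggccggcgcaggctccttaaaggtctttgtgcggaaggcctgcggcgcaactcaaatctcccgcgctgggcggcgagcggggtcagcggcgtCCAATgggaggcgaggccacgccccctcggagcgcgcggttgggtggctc
Mcm6 (chr1:128359706-128359885, minus strand): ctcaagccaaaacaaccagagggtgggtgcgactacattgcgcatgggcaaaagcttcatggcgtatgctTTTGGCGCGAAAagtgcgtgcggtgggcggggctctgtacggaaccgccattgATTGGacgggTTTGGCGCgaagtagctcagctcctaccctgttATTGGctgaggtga
Mcm3 (chr1:20820313-20820492, minus strand): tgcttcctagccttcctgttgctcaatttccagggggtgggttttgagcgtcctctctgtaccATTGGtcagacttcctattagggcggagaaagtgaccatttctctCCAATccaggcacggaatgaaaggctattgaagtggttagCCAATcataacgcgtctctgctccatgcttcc
Kif11 (chr19:37376202-37376381, plus strand): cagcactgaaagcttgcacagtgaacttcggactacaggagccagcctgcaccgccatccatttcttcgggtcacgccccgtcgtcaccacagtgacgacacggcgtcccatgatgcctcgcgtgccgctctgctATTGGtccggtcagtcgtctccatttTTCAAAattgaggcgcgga
Bub1 (chr2:127831860-127832039, minus strand): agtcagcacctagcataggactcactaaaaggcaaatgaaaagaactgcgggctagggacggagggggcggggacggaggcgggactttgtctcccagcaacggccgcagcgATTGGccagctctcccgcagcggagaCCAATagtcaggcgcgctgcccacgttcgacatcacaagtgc
Cenpe (chr3:135212383-135212562, plus strand): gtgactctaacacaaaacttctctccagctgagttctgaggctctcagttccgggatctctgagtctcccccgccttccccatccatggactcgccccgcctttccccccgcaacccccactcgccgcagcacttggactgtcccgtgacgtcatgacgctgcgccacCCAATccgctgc
Ccnb2 (chr9:70421555-70421734, minus strand): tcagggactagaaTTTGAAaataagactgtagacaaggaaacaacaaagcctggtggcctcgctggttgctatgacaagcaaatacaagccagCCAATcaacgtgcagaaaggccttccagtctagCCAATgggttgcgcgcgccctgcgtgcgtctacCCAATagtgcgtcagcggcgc
Cdk1 (chr10:69352913-69353092, minus strand): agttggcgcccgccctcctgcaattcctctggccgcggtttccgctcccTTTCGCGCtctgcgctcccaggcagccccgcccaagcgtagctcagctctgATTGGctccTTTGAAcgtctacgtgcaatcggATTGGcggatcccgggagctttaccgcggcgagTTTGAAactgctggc
Cdkn1b (chr6:134920221-134920400, plus strand): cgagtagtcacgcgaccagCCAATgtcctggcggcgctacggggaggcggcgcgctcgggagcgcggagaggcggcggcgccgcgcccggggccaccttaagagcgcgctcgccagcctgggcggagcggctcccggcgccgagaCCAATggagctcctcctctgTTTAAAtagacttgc

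Over the full 250 bases before the start, CHR letters were in 11 of 15 windows of mitotic genes (Ccnb1, which has no array value, included) and 3 of 14 windows of S phase genes, against 25.2% of all 32851 windows. CCAAT letters were in 14 of 15 mitotic and 9 of 14 S phase windows, against 33.8%. E2F letters were in 4 of 14 S phase windows (Cdc6, Mcm5, Mcm6 and 1 of the 2 windows of Mcm7) and 1 of 15 mitotic windows (Cdk1), against 1.86%. Both CHR and CCAAT were in 10 of 15 mitotic and 2 of 14 S phase windows, against 8.78%. Bub1 and Cenpe, with control array distances of -2.23 and -1.80, had no CHR letters in the window. The letters were not compared with the size of the shortfall over all genes. Cdkn1b, which did not follow the split, also held both CHR and CCAAT letters. These are letter matches and no binding was measured. The genes were a chosen list, so the shares describe that list and not the arrays.

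The G1 genes differed among themselves. In Ccnd1 and Ccnd2 both replicates numbered 1 were the lowest of their groups, with control arrays close together, whereas in Cdkn1b FLAG-SMN IP replicate 1 was not. Ccnd1, encoding cyclin D1, was at 9.69, 10.50 and 10.59 in FLAG-SMN IP and 10.87 and 11.00 in control IP, so all FLAG-SMN arrays were below both control arrays and the control arrays nearly matched (-0.14). Ccnd2, encoding cyclin D2, was at 7.69, 7.97 and 8.09 against 7.33 and 7.37, and here the lowest FLAG-SMN array exceeded the higher control array. Cdkn1b, encoding the CDK inhibitor p27, was at 8.84, 8.22 and 8.46 against 8.52 and 8.54, and FLAG-SMN IP replicate 1 was its highest array. The dimmer Cdkn1b probe set also had its highest value there (7.36, with 6.82 and 6.80 in replicates 2 and 3) but placed the control arrays lower, at 6.53 and 6.45. The probe set that Cdkn1a, encoding the CDK inhibitor p21, shares with 4930567H12Rik was at 6.76, 6.43 and 6.70 against 6.90 and 7.69 and cannot be assigned to either gene.

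The group comparison shows which RNAs differ between precipitates of the 2 kinds of cell. Without input RNA, a difference in the cells and one in recovery with SMN cannot be told apart. Smn1 itself, read first as a check of the labels, was at 9.89, 9.50 and 9.46 against 8.10 and 7.64 (log2 difference 1.74, SE 0.23; limma adjusted p = 0.0877). None of the 36 cell cycle genes passed the adjusted threshold of 0.05 in limma, fitted over all 28187 probe sets, of which 0.0319% passed. At an unadjusted p under 0.05, 1 gene was higher (Ccnd2) and 0 lower, where the shares of all probe sets were 4.14% and 6.31%, or 10.4% in either direction. The groups did not overlap in 2 genes on the higher side (Ccnd2 and Gmnn) and 1 on the lower side (Ccnd1), against 12.1% and 13.2% of all probe sets, or 25.3% together, so these counts were not above the background. The spread within a group exceeded the difference between the groups in 34 of the 36 genes (94.4%), compared with 85.6% of all probe sets.

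Ccnd2 had the smallest p, with a log2 difference of 0.56 (SE 0.20; 95% interval 0.10 to 1.03; 1.48-fold; limma adjusted p = 0.374) from 7.92 ± 0.21 (SD, n = 3) against 7.35 ± 0.028 (SD, n = 2). Birc5 followed at 0.71 (SE 0.31; limma adjusted p = 0.507), from 7.96 ± 0.51 (SD, n = 3) against 7.25 ± 0.24 (SD, n = 2). Ccnd1 was at -0.68 (SE 0.30; limma adjusted p = 0.508), from 10.26 ± 0.49 (SD, n = 3) against 10.94 ± 0.096 (SD, n = 2). The other members had differences from -0.72 (Tyms) to 0.60 (Top2a) and limma adjusted p of 0.742 or more. Intervals were wide: that of Mcm4 ran from -2.06 to 1.35 and that of Bub1 from -1.19 to 1.71, so both intervals include differences of 2-fold in either direction.

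**Figure D4:**
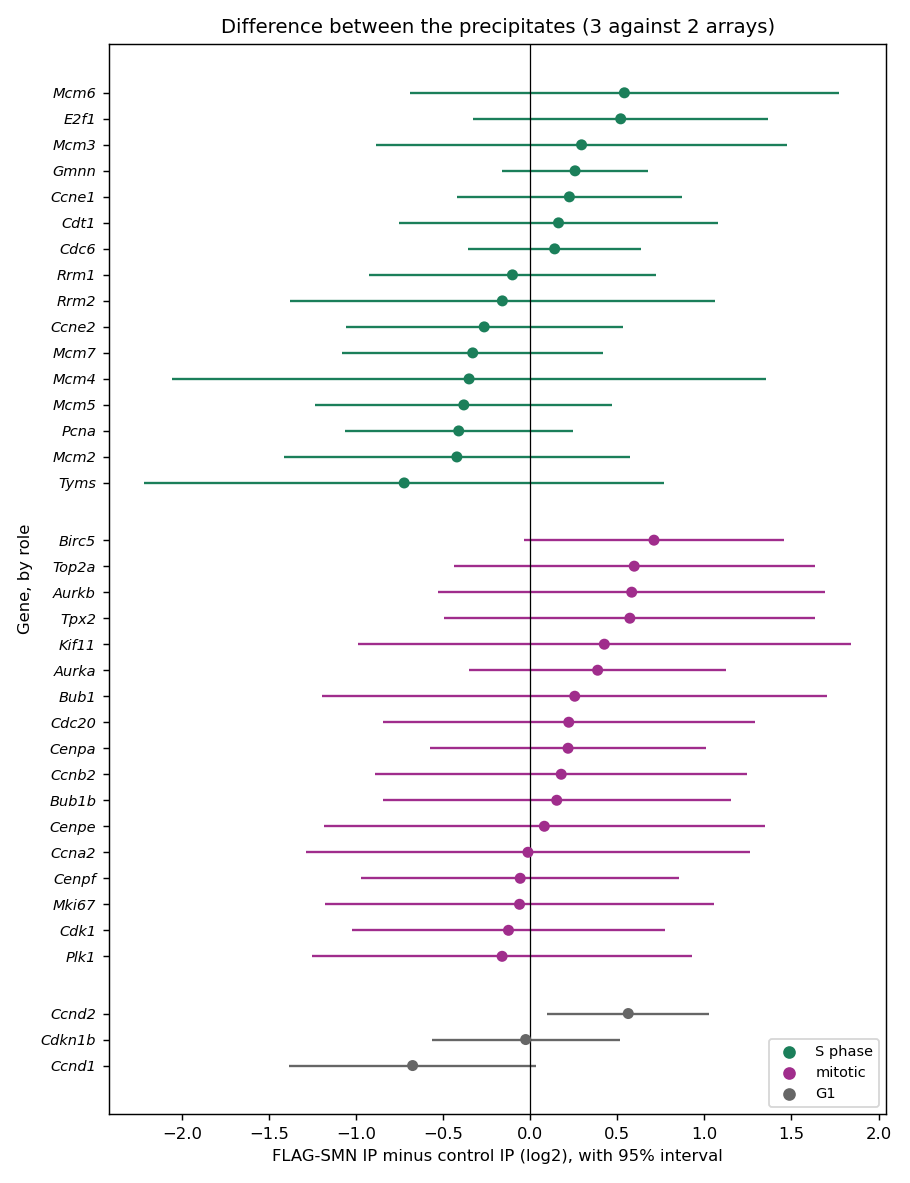
FLAG-SMN IP minus control IP on the log2 scale (horizontal axis) for each of the 36 genes (vertical axis, by role); points are the limma differences and bars their 95% intervals, 3 arrays against 2. The interval of Ccnd2, from 0.10 to 1.03, is the one that does not reach 0, and its adjusted p was 0.374 in limma.

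By role, the median difference was -0.13 over the 16 S phase genes (7 positive, 9 negative) and 0.22 over the 17 mitotic genes (12 positive, 5 negative), with 0.15 over all 36 and 0.018 over all probe sets. These signs depended on single arrays. The S phase median was 0.28 without FLAG-SMN IP replicate 1, -0.65 without control IP replicate 1 and 0.31 without control IP replicate 2. The mitotic median was 0.42, -0.56 and 0.86 with the same arrays left out, and -0.011 without FLAG-SMN IP replicate 3. Without control IP replicate 1 the differences of 29 of the 36 genes were negative, and without control IP replicate 2 those of 31 were positive. Leaving out either control array leaves a single control array, so no p-values are read from those fits. Without FLAG-SMN IP replicate 1, 4 of the 36 genes were higher at an unadjusted limma p under 0.05 (Mcm6, Aurkb, Birc5 and Ccnd2), against 5.92% of all probe sets. Of these, Birc5 came nearest to the adjusted threshold (1.00, limma adjusted p = 0.083). None of the 36 members passed the adjusted threshold in any fit that left out a FLAG-SMN array.

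**Figure D5:**
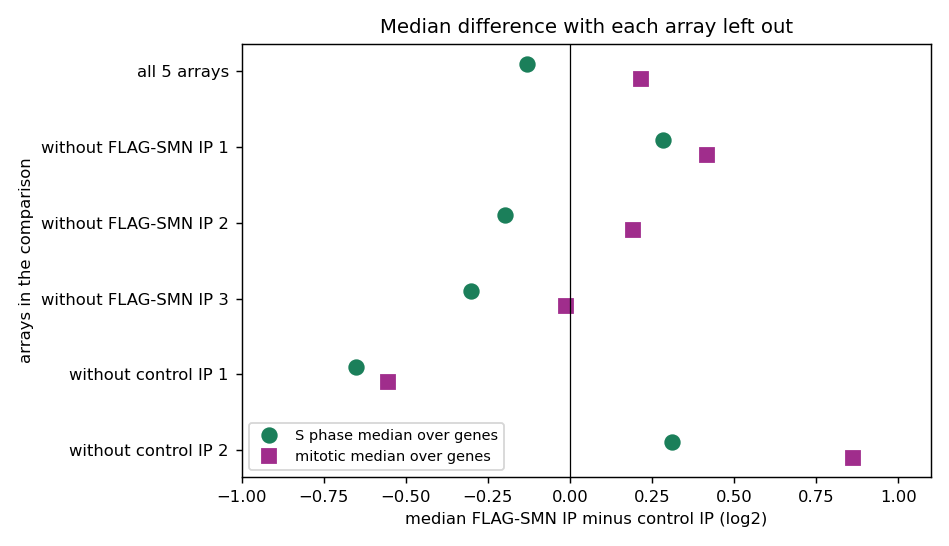
Median FLAG-SMN IP minus control IP difference (horizontal axis, log2) over the S phase and the mitotic genes, with all 5 arrays and with each array left out (vertical axis). Leaving out control IP replicate 1 or replicate 2 puts both medians on opposite sides of 0, from -0.65 and -0.56 to 0.31 and 0.86.

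Further genes of the same pathways, listed by role, were followed in the same way. Of 60 other mitotic genes, all 60 were lower in control IP replicate 1 than in replicate 2, against 43.1% of all probe sets. Of these, 46 were at least 2-fold lower, against 1.71% of all probe sets and 2.8% of those above the median signal. Control IP replicate 1 was the lowest of the 5 arrays in 50, against 4366 of all 28187 probe sets and 3122 of the 14093 above the median signal. The median distance between the control arrays was -1.22 in this list and -0.71 over 50 other replication genes, of which 14 were at least 2-fold lower. The other replication genes did not repeat the balance of the S phase members. Their shortfall was larger in the control arrays in 30 of 50 (60%), near the 56.4% of probe sets above the median signal (44.8% of all). The lowest of the 5 arrays was control IP replicate 1 in 26 and FLAG-SMN IP replicate 1 in 21, against 4366 and 6827 of all 28187 probe sets. FLAG-SMN IP replicate 1 was the lowest of its group in 41 of the 60 mitotic and 34 of the 50 replication genes, against 36.8% of all probe sets. Of 32 other G1 and cell cycle exit genes, 24 were lower in control IP replicate 1, 1 of them at least 2-fold, with a median of -0.39.

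Between the groups, none of the genes of these 3 lists passed the adjusted threshold in limma. At an unadjusted limma p under 0.05, 6 of the 60 mitotic genes were higher and 0 lower. Of the 50 replication genes 2 were higher and 0 lower, and of the 32 G1 and exit genes 0 were higher and 2 lower. Over all probe sets in that fit, 4.14% were higher and 6.31% lower. The median differences of the mitotic, replication and G1 lists were 0.31, 0.022 and 0.020. The median difference of this mitotic list was 0.91 without control IP replicate 2 and -0.33 without control IP replicate 1, so its sign rests on the control arrays. Each of these comparisons has a single control array, so no p-values are read from them. Cdca5, which encodes sororin, was at 7.49, 7.93 and 7.99 in FLAG-SMN IP against 6.15 and 7.22 (1.12, limma adjusted p = 0.310), and Spc24, a kinetochore gene, at 7.02, 6.87 and 7.25 against 6.28 and 6.43 (0.70, limma adjusted p = 0.270). In neither gene did the groups overlap, and in Spc24 the arrays of each group were close. Cks1b and Cks2, whose products bind CDKs, had the smallest p on the lower side of the mitotic list (-0.57 and -0.45, limma adjusted p = 0.833 and 0.823).

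In the replication list, Rpa2, a subunit of the single-strand binding protein, was at 8.51, 8.97 and 8.72 in FLAG-SMN IP against 8.03 and 8.23 in control IP (0.61, limma adjusted p = 0.364), and Ung, uracil DNA glycosylase, at 6.87, 6.80 and 7.03 against 6.40 and 6.53 (0.44, limma adjusted p = 0.466). Rpa3, another subunit of that protein, had the opposite sign, at 7.57, 8.66 and 8.48 against 8.81 and 9.03 (-0.68, limma adjusted p = 0.572). Pole, a replicative polymerase gene, was at -0.74 (limma adjusted p = 0.690) with overlapping groups. Rpa2 and Rpa3 had opposite signs, but genes were named by smallest p in each direction, and neither passed the adjusted threshold.

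In the G1 list the smallest p-values on the lower side belonged to Myc and Cdk4. Cdk4, the kinase partner of cyclin D, was at 10.61, 11.43 and 11.43 in FLAG-SMN IP against 11.97 and 11.83 in control IP (-0.74, limma adjusted p = 0.438). Myc, a transcription factor gene of growth, was at 9.98, 10.53 and 10.58 against 11.03 and 10.91 (-0.60, limma adjusted p = 0.437). In both, as in Ccnd1, FLAG-SMN IP replicate 1 was the lowest array and the groups did not overlap; unlike in Ccnd1, control IP replicate 1 was slightly above replicate 2. On the higher side Ccng2, a cyclin G gene, was at 7.69, 6.51 and 6.87 against 6.13 and 6.29 (0.81, limma adjusted p = 0.481), and the CDK inhibitor gene Cdkn2d at 8.09, 7.41 and 7.73 against 7.19 and 7.23 (0.53, limma adjusted p = 0.508). In both, as in Cdkn1b, FLAG-SMN IP replicate 1 was the highest array.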

How the data were processed

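RNA of 5 anti-FLAG precipitates was measured on 1-colour Affymetrix arrays, 1 column per array. The deposited values are log2 values made with RMA by the authors, per the submitters' processing notes; the sources used here name no version or settings for it. Groups came from the sample titles. Of 34760 probe sets, the 6573 with IDs below the lowest annotated ID were set aside as presumed controls, leaving 28187, and the platform annotation gave 21640 of these a single symbol, 1321 several symbols and 5226 no symbol.

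The groups were compared with limma 3.58.1 under R 4.3.3 (functions lmFit, then eBayes, 2-sided, without a block). The Benjamini-Hochberg adjustment ran over 28187 probe sets (threshold 0.05), with 3 residual and 3.8 prior degrees of freedom. The fit was tried on simulated data with independent noise on each array. That simulation held no shift shared by many genes on an array, so it cannot show how the fit handles such shifts. With 5 arrays, array number sets the precision. Each gene was read at its brightest single-symbol probe set. Lists were described by counts and medians, without a list test. All measured members may be named; in each other list the 2 genes of smallest p in each direction are. The members and lists were chosen with earlier results of these data known. The alternatives tried were loess scaling (cyclic), arrays centred on the brighter features, testing those alone, array weights, trend and robust moderation, a replicate block, each array left out in turn, the whole table, mean of a gene's probe sets, brighter members only and stricter S phase and mitotic classes (without Ccna2, Top2a, Mki67, Gmnn, E2f1, Ccne1 and Ccne2). Figures used matplotlib 3.10.9.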

Additional observations from a re-analysis of the deposited data

How the results depend on the processing

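None of the 36 members passed the adjusted threshold in limma under any alternative that kept both control arrays. Over all probe sets the count of 9 became 0 with cyclic loess scaling, the replicate block or all probe sets of the table. It became 41 when centred on brighter probe sets and 86 with array weights. Leaving out one array gave 0 to 350, the latter without FLAG-SMN IP replicate 1. Leaving out both replicates numbered 1, chosen after seeing the data, gave 1174 in a fit of 3 arrays. Genes at an unadjusted p under 0.05 were 1 in the fit as reported, 2 with cyclic loess, centring or array weights, 0 with trend and robust moderation, 3 (all lower: Mcm2, Mcm4 and Ccnd1) with the replicate block, 8 (3 higher, 5 lower) without both replicates numbered 1, and 0 to 7 with one array left out. For the replicate block and the fit without both replicates numbered 1, no share of all probe sets at that unadjusted p is given. Whether the counts of 3 and 8 exceed the background of their own fits can therefore not be read from them. With one array left out, the median difference over all members ranged from -0.56 to 0.58. The median ranged from -0.65 to 0.31 over S phase and from -0.56 to 0.86 over mitotic genes. The S phase minus mitotic difference ranged from -0.56 to -0.032 with one array left out, and was 0.018 without both replicates numbered 1. With array weights the S phase median was 0.12. The replicate number as a block gave medians of -0.020 over all members and -0.011 over mitotic genes. Deviations from the group means correlated at 0.13 between the replicates numbered 1 and -0.20 between those numbered 2 across probe sets. With 2 control arrays their deviations mirror each other, so these values cannot decide whether equal numbers mark a shared preparation. The cause of these changes was not tested beyond the arrays named.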
